A study of Mus musculus with 6 samples.

Results

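The genes described here make the enzymes and helpers that turn a new collagen chain into a secreted fibre-forming molecule. They were chosen by gene symbol and comprise 10 genes among the 19730 rows of the expression table: the prolyl 4-hydroxylase α subunits P4ha1, P4ha2 and P4ha3, the lysyl hydroxylases Plod1, Plod2 and Plod3, the collagen chaperone Serpinh1, the prolyl 3-hydroxylation cofactor Crtap, and Bmp1 and Pcolce, which act on the C-propeptide. RNA-Seq was done on cultured primary mesangial cells of the mouse, which surround and hold the capillaries of the glomerulus. There were 3 Control libraries and 3 libraries from cells given TGF-β1 at 10 ng/ml for 72 h, and TGF-β1 is a secreted growth factor that drives scarring. Cells of both groups were at passage 3 to 6, in medium with 25.5 mM glucose and 20% fetal bovine serum. The labels do not say what the Control cells received in place of TGF-β1, nor whether the 3 libraries of a group came from separate cultures, so the p-values measure only the spread between these libraries.

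Collagen chains are modified in the endoplasmic reticulum while they are still unfolded. Prolyl 4-hydroxylase, a tetramer of α subunits and the β subunit P4hb, makes the 4-hydroxyproline that keeps the triple helix stable at body temperature, and it needs iron, 2-oxoglutarate and ascorbate. Lysyl hydroxylases make the hydroxylysine on which sugars and durable cross-links are built, Crtap holds the prolyl 3-hydroxylase Lepre1 in a complex with the isomerase Ppib, and Serpinh1 (HSP47) binds the folded helix on its way out. Outside the cell, Bmp1 cuts off the C-propeptide so that fibrils can form, and Pcolce binds the propeptide and speeds this cut.

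Whole-library measures came first, since they touch several values below. Depth recovered from the smallest FPKM steps was 10.1 to 11.1 M fragments (M for mega) per library, and FPKM is fragments per kilobase of transcript per M mapped fragments. The second replicates of Control and TGF-β1 deviated alike. Their deviations from the group means were correlated across rows (r = 0.42, against 0.22 at most for any other Control and TGF-β1 pair). The deviations of the TGF-β1 libraries ran with row GC content in opposite senses (Spearman's rho across rows 0.27, -0.39 and 0.32 for replicates 1 to 3, a description). In Control this relation was weaker (rho -0.09, 0.009 and 0.10), and replicate 2 was not set apart by it. Of 8 mesangial markers, 5 averaged at least 1 FPKM (Pdgfrb, Acta2, Tbx18, Gata3 and Foxd1), and the group means of Itga8, Des and Thy1 were at most 0.271 FPKM. The mesangial sum, mostly Acta2, was 962 to 1141 FPKM in Control and 3621 to 4305 FPKM with TGF-β1. Acta2 alone carried that rise, since Foxd1 (2.52 to 0.564 FPKM, limma adjusted p 0.000677) and Pdgfrb (37.5 to 29.2 FPKM, limma adjusted p 0.0396) were called lower and Tbx18 and Gata3 were not called. Summed macrophage markers (4 of 5 found, mostly Csf1r in Control) were 8.19 to 9.58 FPKM in Control and 2.26 to 3.24 FPKM with TGF-β1, with the defining gene Ptprc at group means of 0 and 0.0289 FPKM. Summed podocyte markers (4 genes, mostly Synpo and Wt1) were 19.6 to 24.9 and 12.5 to 13.7 FPKM, with the defining gene Nphs1 at group means of 0.222 and 0.0683 FPKM. Endothelial and tubular sums were under 2.1 FPKM in every library. The part of these cell types in the results was not tested. In bulk RNA, fewer cells of a type and less RNA per cell cannot be told apart.

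Most of the modifying enzymes and the chaperone were upregulated by TGF-β1, while the enhancer Pcolce was downregulated. Differences were tested with limma on log2(FPKM + 1) over the 11898 rows whose FPKM averaged at least 1, and a row was called changed at a Benjamini-Hochberg adjusted p under 0.05. This filter kept 9 of the 10 genes, each at 8.98 FPKM or more in every library, and left out P4ha3. Of the 9, 6 were called higher (P4ha1, P4ha2, Plod1, Plod2, Serpinh1 and Bmp1), 1 was called lower (Pcolce), and Plod3 and Crtap were not called. Across all tested rows 48.1% were called, 24.5% higher and 23.6% lower (2911 and 2810 rows). That even split depends on the scaling, since with FPKM rescaled to a common sum of protein-coding rows 2015 were called higher and 3927 lower, while the calls of the 9 genes were the same. The median log2 change of the 9 genes was 0.88, against -0.02 over all tested rows. The groups did not overlap in 8 of the 9 genes, all but Crtap, and in 59.4% of all tested rows. A call with a log2 change of 1 or more in size was seen in 4 genes (P4ha1, Plod2, Bmp1 and Pcolce) and in 13.9% of tested rows.

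**Figure D1:**
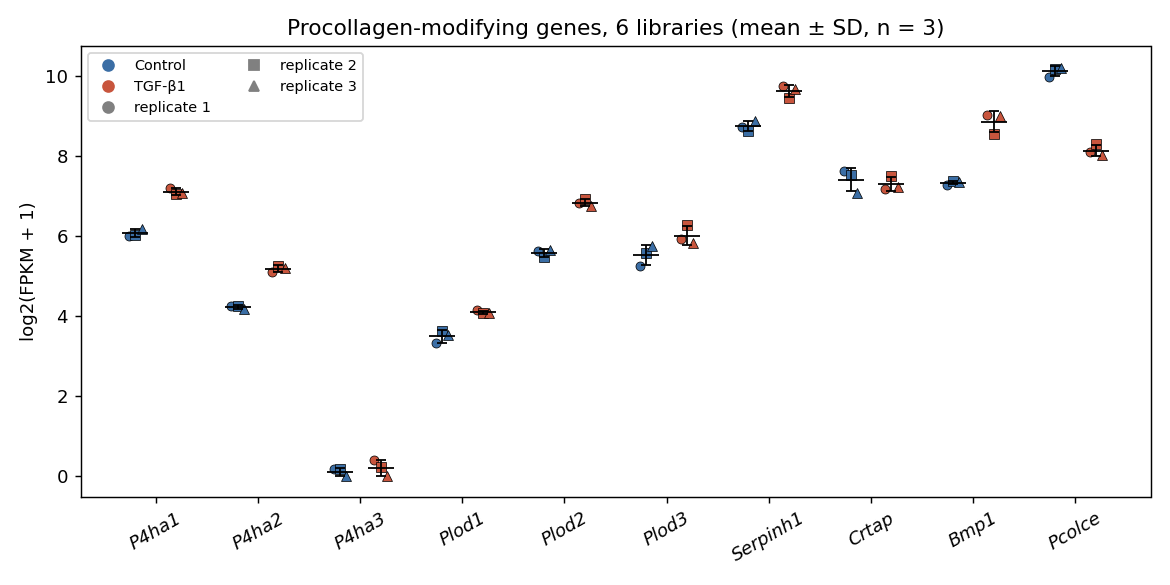
Expression of the 10 genes as log2(FPKM + 1) in each library, with Control in blue and TGF-β1 in red, marker shape giving the replicate number and black bars the mean ± SD (n = 3). Pcolce is the only gene whose TGF-β1 libraries all lie below its Control libraries, P4ha3 stays near 0, and Crtap overlaps between groups.

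Prolyl 4-hydroxylase α subunits were examined first. P4ha1 (mm9 chromosome 10, 58786044 to 58836052), the main catalytic subunit in most cells, was at 63.1, 64.6 and 71.8 FPKM in Control replicates 1 to 3 and at 147, 133 and 134 FPKM with TGF-β1. Every TGF-β1 library exceeded every Control library, and the means were 66.5 ± 4.68 and 138 ± 7.84 FPKM (SD, n = 3). The log2 change was 1.04 (SE 0.0863, limma adjusted p 0.000228). P4ha2 (chromosome 11, 53913597 to 53945167), an alternative α subunit, was at 18.2, 18.1 and 17.0 FPKM in Control and at 33.3, 37.2 and 36.1 FPKM with TGF-β1, again without overlap. Its log2 change was 0.96 (SE 0.0775, limma adjusted p 0.000209). The P4ha2 row carries the identifier of a transcript of only 605 nt out of 15 annotated for the gene, so its level may not be that of the whole gene. P4ha3, the least widely expressed α subunit (chromosome 7, 107434030 to 107468209), had 0.125, 0.129 and 0 FPKM in Control and 0.322, 0.176 and 0 FPKM with TGF-β1, or roughly 0 to 7.78 fragments per library. No difference in P4ha3 was detectable at this depth (limma adjusted p 0.561 without the filter on low values, where 30.5% of rows were called), and its row names a transcript annotated for nonsense-mediated decay.

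As far as the P4ha2 row stands for its gene, P4ha1 and P4ha2 rose in nearly the same proportion. The sum of P4ha1, P4ha2 and P4ha3 went from 84.3 ± 3.93 to 174 ± 6.01 FPKM. P4ha1 made up 77.4%, 78.0% and 80.9% of that sum in the Control libraries and 81.4%, 78.0% and 78.8% with TGF-β1, a difference in mean of 0.635 percentage points that lay within the spread (two-sided exact permutation test, p = 0.5). The share of P4ha2 was 21.1 ± 1.74% in Control and 20.5 ± 1.82% with TGF-β1 (exact permutation p = 0.6). A share within a library does not depend on how the library was scaled. The β subunit P4hb, which is also the general oxidoreductase protein disulfide isomerase, was higher by 0.62 on the log2 scale (372 ± 39.5 to 575 ± 82.8 FPKM, limma adjusted p 0.0120).

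Of the lysyl hydroxylases, Plod2 and Plod1 rose and Plod3 was not called. Plod2 (chromosome 9, 92437061 to 92503266), which hydroxylates lysines of the telopeptides, was at 48.8, 43.3 and 49.3 FPKM in Control and at 113, 121 and 108 FPKM with TGF-β1. The lowest treated library was more than 2 times the highest Control library, and the log2 change was 1.25 (SE 0.0876, limma adjusted p 0.000125). Plod1 (chromosome 4, 147283862 to 147310876), which acts on lysines of the helix, was at 8.98, 11.3 and 10.6 FPKM in Control and at 16.7, 15.9 and 15.9 FPKM with TGF-β1. Its groups did not overlap, and it rose by 0.61 on the log2 scale (SE 0.0996, limma adjusted p 0.00350). Plod3 (chromosome 5, 137462889 to 137472518), which also transfers glucose and galactose to hydroxylysine, was at 37.2, 47.0 and 53.1 FPKM in Control and at 60.3, 76.8 and 56.0 FPKM with TGF-β1. All 3 treated libraries lay above the Control libraries, but the replicates were widely spread and the log2 change of 0.48 was not called (SE 0.172, unadjusted 95% interval 0.07 to 0.90, limma adjusted p 0.0579). Of 18 settings (the main fit and its 17 alternatives), 3 called Plod3. These were the fit without Control replicate 3 (log2 change 0.60, limma adjusted p 0.0434), with the second replicates as a batch term (limma adjusted p 0.0485) and after the trend with GC content and length was removed (log2 change 0.71, limma adjusted p 0.0190). Within replicates 1 and 3 the log2 change was 0.38 (limma adjusted p 0.203). With FPKM rescaled to a common sum of protein-coding rows it was 0.29 (limma adjusted p 0.238). Plod3 overlaps Znhit1 on the opposite strand and Mir702 on its own strand.

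The share of Plod2 among the lysyl hydroxylase transcripts was higher in every TGF-β1 library than in any Control library. Plod2 made up 51.4%, 42.6% and 43.6% of the summed Plod1, Plod2 and Plod3 FPKM in Control and 59.4%, 56.6% and 60.0% with TGF-β1. The mean share was higher by 12.8 percentage points. The share of Plod3 went from 44.1 ± 4.34% to 33.0 ± 2.59%, and that of Plod1 from 9.99 ± 0.966% to 8.36 ± 0.806%. The Plod1 difference of -1.63 percentage points was -1.07 without Control replicate 2 (exact permutation p = 0.3) and -0.608 in replicates 1 and 3. With all libraries, for each of these 3 shares the exact permutation p (two-sided) was 0.1, the least that 3 libraries against 3 can reach, and 0.129 after adjustment over 18 such shares and ratios, so this design cannot call them. Plod2 and Plod3 were not separated in Control (47.2 ± 3.33 and 45.8 ± 8.05 FPKM), whereas every TGF-β1 library of Plod2 exceeded every one of Plod3.

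**Figure D2:**
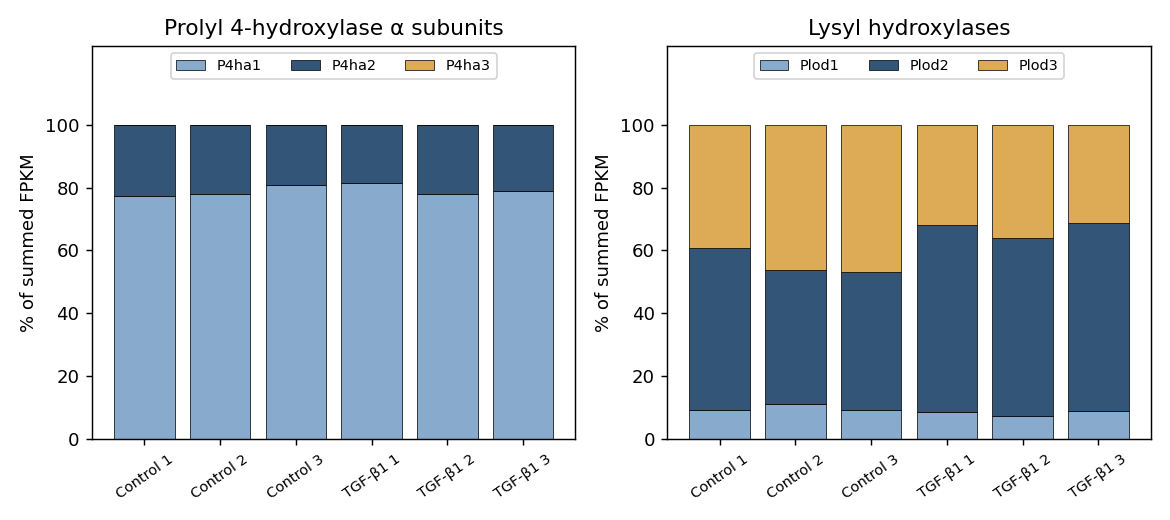
Share of each α subunit in the summed FPKM of P4ha1, P4ha2 and P4ha3 (left) and of each lysyl hydroxylase in the summed FPKM of Plod1, Plod2 and Plod3 (right), in percent, with 1 bar per library. The P4ha1 share stays between 77.4% and 81.4%, and the Plod2 share is 42.6% to 51.4% in Control and 56.6% to 60.0% with TGF-β1. The P4ha2 row names a transcript of 605 nt, so the left shares hold only as far as it stands for its gene.

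The chaperone Serpinh1 and the cofactor Crtap both act on procollagen in the endoplasmic reticulum, but only Serpinh1 was called. Serpinh1 (chromosome 7, 106493885 to 106501740) was at 425, 397 and 471 FPKM in Control and at 858, 702 and 828 FPKM with TGF-β1. The groups were well separated, with the second replicate the lowest in each, and the log2 change was 0.88 (SE 0.118, limma adjusted p 0.00153). Crtap (chromosome 9, 114284252 to 114299793) was at 196, 185 and 134 FPKM in Control and at 145, 182 and 148 FPKM with TGF-β1. The TGF-β1 values lay within the Control range, and the log2 change was -0.10 with a 95% interval of -0.52 to 0.31 (limma adjusted p 0.643). That interval leaves room for a change in either direction. Crtap overlaps 4930520O04Rik on the opposite strand.

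Of the partners of Crtap in the 3-hydroxylation complex, Lepre1 rose and Ppib was not called. Lepre1, the enzyme, rose by 0.88 on the log2 scale (25.6 ± 1.82 against 47.8 ± 3.19 FPKM, limma adjusted p 0.000513). Ppib, the isomerase cyclophilin B, was at 61.6 ± 13.4 and 80.6 ± 6.99 FPKM and was not called (limma adjusted p 0.0918). The ratio of Crtap to Lepre1 FPKM was 8.31, 7.07 and 4.95 in the Control libraries and 2.92, 4.13 and 2.98 with TGF-β1. These groups did not overlap (two-sided exact permutation p = 0.1, the smallest possible, and 0.129 adjusted).

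Genes for the removal of the C-propeptide moved in opposite directions. Bmp1 (chromosome 14, 70874364 to 70920067), the procollagen C-proteinase, was at 156, 165 and 164 FPKM in Control and at 522, 376 and 515 FPKM with TGF-β1. TGF-β1 replicate 2 was the lowest treated library but still more than 2 times any Control library. The means were 161 ± 4.83 and 471 ± 82.1 FPKM, a 2.92-fold difference and the largest increase among the 10 genes (log2 change 1.52, SE 0.142, limma adjusted p 0.000346). Within replicates 1 and 3 the log2 change was 1.69 (limma adjusted p 0.00204).

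Pcolce (chromosome 5, 138046331 to 138055012), the enhancer of that proteinase, was at 1015, 1156 and 1189 FPKM in Control and at 274, 315 and 261 FPKM with TGF-β1. In Control it was the most abundant of the 10 genes, above 99.6% of all rows of at least 300 nt, and with TGF-β1 it stood below Serpinh1 and Bmp1 in every library. The means were 1120.1 ± 92.4 and 283 ± 28.0 FPKM, which is 3.96-fold lower (log2 change -1.98, SE 0.113, limma adjusted p 6.06e-05). Only 216 of the 11898 tested rows had a more negative log2 change. Pcolce overlaps Fbxo24 on the same strand, and 11 transcripts are annotated for it. The FPKM ratio of Pcolce to Bmp1 was 6.51, 7.03 and 7.26 in the Control libraries and 0.525, 0.836 and 0.506 with TGF-β1, an 11.1-fold difference in mean without overlap (two-sided exact permutation p = 0.1, the smallest possible, and 0.129 adjusted). Pcolce thus exceeded Bmp1 in every Control library, and Bmp1 exceeded Pcolce in every TGF-β1 library.

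Of their paralogues, Pcolce2 and Tll1 were low in Control and rose, and Tll2 was too low to test. Pcolce2, a second enhancer of the C-proteinase, was at 0.470, 0.748 and 1.31 FPKM in Control and at 10.1, 10.6 and 8.25 FPKM with TGF-β1 (log2 change 2.55, limma adjusted p 0.000162). Tll1, a second proteinase of the Bmp1 family, was at 0.345, 0.230 and 0.353 FPKM and at 3.41, 4.30 and 3.44 FPKM (log2 change 1.85, limma adjusted p 0.000125). Both remained a small part of their pair. With TGF-β1, Pcolce2 made up 3.29 ± 0.248% of the summed Pcolce and Pcolce2 FPKM, against 0.0737 ± 0.0329% in Control, and the sum itself went from 1121 ± 92.7 to 293 ± 29.0 FPKM. Tll1 made up 0.814 ± 0.273% of the summed Bmp1 and Tll1 FPKM.

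**Figure D3:**
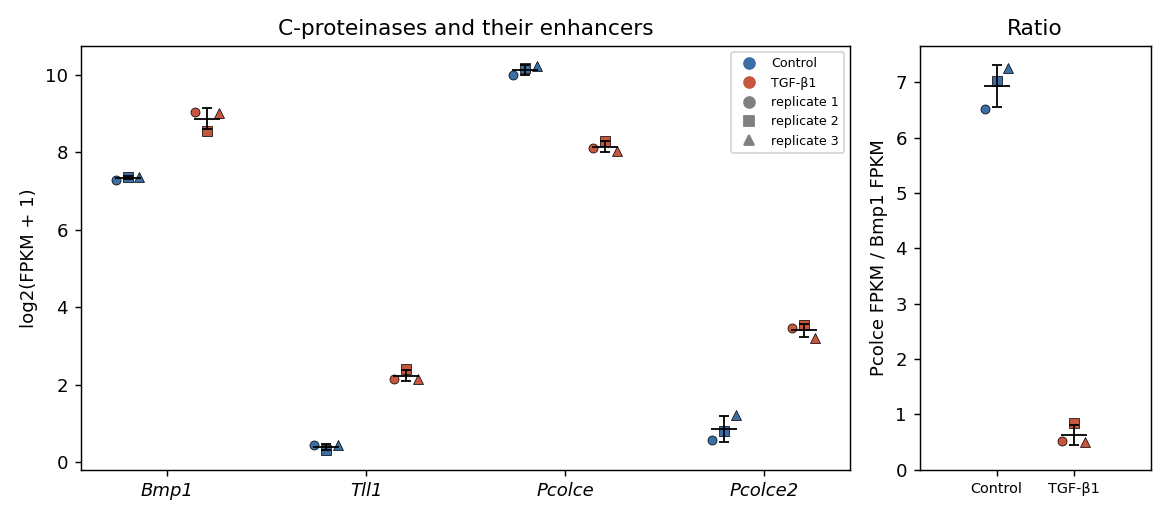
Left, log2(FPKM + 1) of the C-proteinases Bmp1 and Tll1 and the enhancers Pcolce and Pcolce2 in each library (Control blue, TGF-β1 red, bars mean ± SD, n = 3). Right, the ratio of Pcolce to Bmp1 FPKM within each library, between 6.51 and 7.26 in Control and between 0.506 and 0.836 with TGF-β1.

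The order of the 10 genes by level therefore changed. In Control it was Pcolce, Serpinh1, Crtap, Bmp1, P4ha1, Plod2, Plod3, P4ha2, Plod1 and P4ha3, and of these neighbours Crtap and Bmp1, and Plod2 and Plod3, overlapped between libraries. With TGF-β1 it was Serpinh1, Bmp1, Pcolce, Crtap, P4ha1, Plod2, Plod3, P4ha2, Plod1 and P4ha3, where only Crtap and P4ha1 overlapped. FPKM is a level per transcript length, so genes can be set side by side as far as each row stands for its gene. Whether this holds is not known for P4ha2 (a 605 nt transcript) and P4ha3 (a transcript annotated for nonsense-mediated decay). Their places in the order are therefore less sure. The 5 highest genes of the Control order lay above 92.9% to 99.6% of rows of at least 300 nt.

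The other genes of the collagen pathway and some of their relatives, such as P4htm, were then counted from a list of 33 genes grouped by role. The table held 32 of them, and 27 passed the filter, of which 19 were called higher, 8 were not called and 0 were called lower by limma (Leprel1 and Leprel2 were lower at an unadjusted p under 0.05). In 9 of 17 alternative fits 1 gene was called lower, which was Leprel1, Leprel2 or P4htm. Over all tested rows 24.5% were called higher and 23.6% lower. The median log2 change of the 27 was 0.62, against -0.02 over all tested rows. Of the 5 substrate chains, 4 were called higher, Col1a1 most (231 ± 6.10 to 953 ± 37.4 FPKM, log2 change 2.04), and Col3a1 was not called. The call of Col1a2 rests on a row with roughly 3.93 to 11.9 fragments per library. Of 5 peptidyl-prolyl isomerases 4 rose, Fkbp14 most (8.39 ± 0.961 to 25.3 ± 0.689 FPKM, log2 change 1.49). Of 4 tested genes for export from the endoplasmic reticulum 2 rose, and Sec24d, a cargo-binding coat subunit, changed most (7.02 ± 0.364 to 23.3 ± 0.510 FPKM, log2 change 1.60). Both transcription factors rose, and Creb3l1, an endoplasmic reticulum-anchored activator of collagen genes, rose by 2.08 on the log2 scale (13.3 ± 1.07 against 59.5 ± 6.51 FPKM, limma adjusted p 4.58e-05).

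Among the remaining roles, 2 of 4 prolyl 3-hydroxylase relatives rose (Lepre1 and Leprel4), as did the galactosyltransferase Glt25d1 and the N-proteinase Adamts2. Leprel1, a prolyl 3-hydroxylase, was at 2.68, 2.21 and 1.90 FPKM in Control and at 0.149, 2.10 and 0.0899 FPKM with TGF-β1, so that TGF-β1 replicate 2 alone lay in the Control range. It was not called with all libraries (log2 change -1.05, limma adjusted p 0.0798) and was called without that library (log2 change -1.54, limma adjusted p 0.00143). Leprel2, Ppib, Ctage5, Klhl12, Adamts14 and the ascorbate transporter Slc23a2 were not called. P4htm, Glt25d2, Adamts3, Tll2 and Slc23a1 were under the filter on low values.

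**Figure D4:**
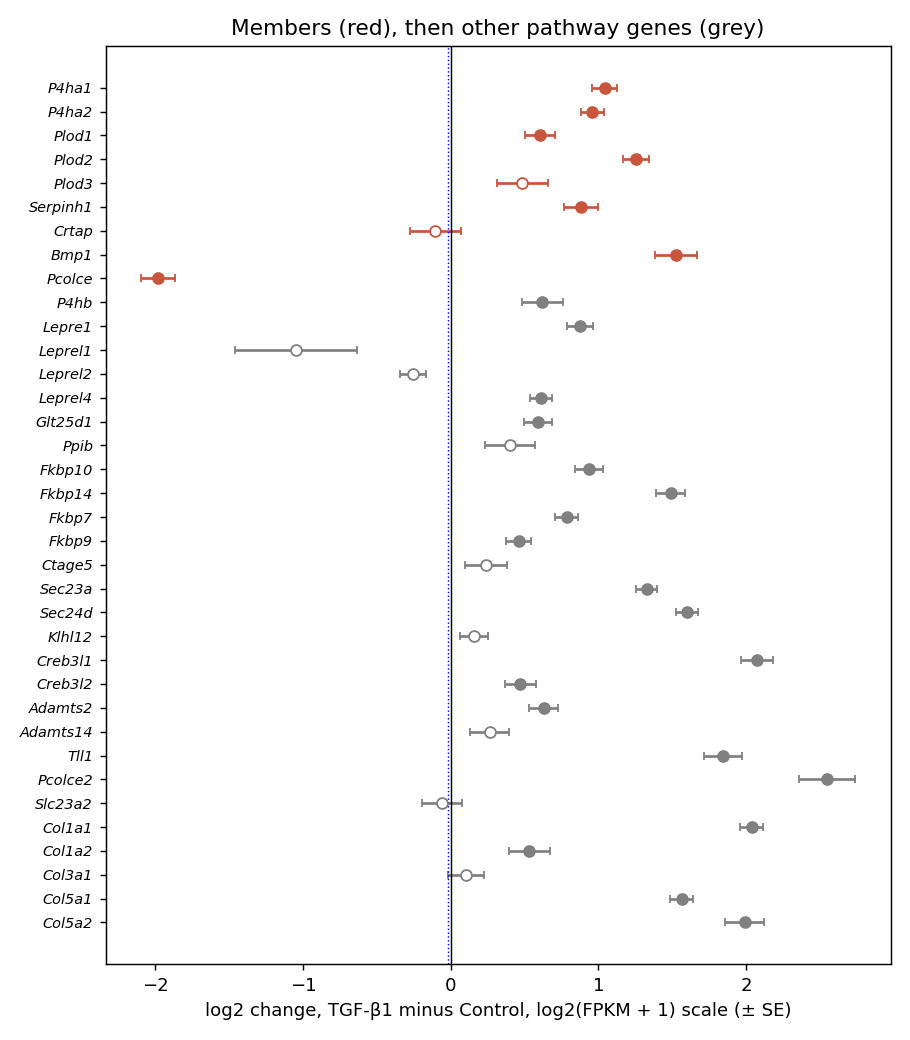
Log2 change with TGF-β1 (± SE of the limma fit) for the 9 tested genes of the set in red and 27 other tested pathway genes in grey, with filled points for adjusted p under 0.05 and a dotted line at the median of all tested rows, -0.02. Pcolce is the only filled point below 0 in this fit (Leprel1, Leprel2 or P4htm was also called lower in 9 of 17 alternatives), and its paralogue Pcolce2 has the largest increase on this log2(FPKM + 1) scale, 2.55, although the fold of group means was larger for Tll1 (12.0) than for Pcolce2 (11.4).

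Set against the sum of 5 fibrillar collagen chains, all 9 tested genes were lower with TGF-β1. This direction followed from the divisor, since the sum rose 3.82-fold and the largest rise among the 9 was 2.92-fold (Bmp1). Only 381 of the 11898 tested rows had a larger log2 change than Bmp1, so most rows would also be lower on this scale. The direction is therefore not particular to these genes. The summed FPKM of Col1a1, Col1a2, Col3a1, Col5a1 and Col5a2 went from 502 ± 23.2 to 1914 ± 120 FPKM, a 3.82-fold difference that came mostly from Col1a1 and Col5a2. The Col1a2 row names an 850 nt transcript and held only 0.726 ± 0.156 FPKM in Control, so that chain is hardly represented in the sum. Col3a1 was at 26.0 ± 3.38 FPKM in Control and 27.9 ± 2.39 FPKM with TGF-β1 and was not called. The comparison is thus with this sum and not with each chain, and collagen IV chains were not part of it. Serpinh1 stood at 81.5, 78.2 and 98.9 FPKM per 100 FPKM of these chains in Control and at 44.7, 34.6 and 46.2 with TGF-β1. P4ha1 went from 13.3 ± 1.58 to 7.23 ± 0.603 and Plod2 from 9.42 ± 0.913 to 5.94 ± 0.0719 on the same scale. Crtap, whose own level was not called, went from 34.1 ± 5.10 to 8.27 ± 0.722.

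Both extremes of this comparison were again the C-propeptide genes. Bmp1 was closest to keeping pace, with 32.3 ± 2.27 FPKM per 100 FPKM of chains in Control and 24.8 ± 5.50 with TGF-β1, the treated libraries at 27.2, 18.5 and 28.8. This difference of -7.42 was -4.28 without TGF-β1 replicate 2, the lowest treated library (exact permutation p = 0.2). Pcolce went from 224 ± 27.7 to 14.8 ± 0.641, a 15.2-fold difference. The groups did not overlap in any of the 9 tested genes (two-sided exact permutation p = 0.1 each, the smallest possible, and 0.129 adjusted over 18 shares and ratios). The share of all rows without overlap on this scale was not computed, so this count is not a result about the 9 genes. Even Crtap, whose own levels overlapped between groups, was separated once divided by the sum.

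**Figure D5:**
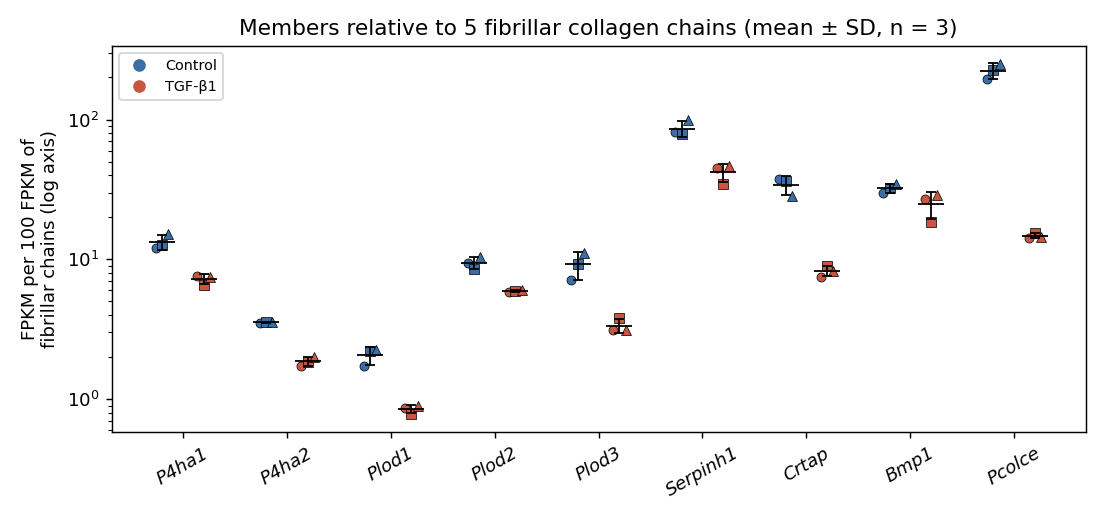
FPKM of each tested gene per 100 FPKM of 5 summed fibrillar collagen chains in the same library, on a log axis, for Control (blue) and TGF-β1 (red) with mean ± SD (n = 3). All 9 genes are lower with TGF-β1, least for Bmp1 (32.3 to 24.8) and most for Pcolce (224 to 14.8). The sum of chains rose more than any of the 9, so this direction follows from the divisor.

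Promoter sequence was then searched for short motifs that the genes share. RefSeq gene starts (GRCm38.p6, another build than that of the expression data) were found for 8 of the 10 genes, and Bmp1 and Plod2 were not among them. The 250 bases before each start were searched on both strands. ACGTG, the core of the hypoxia response element by which P4ha1, P4ha2 and other hydroxylase genes are known to answer to low oxygen, occurred in 4 of the 8 (P4ha1, P4ha2, Plod3 and Serpinh1) and in 16.6% of 32851 promoters. The 30-base stretches that hold it are shown 5′ to 3′ on the strand of the gene, with the match in capitals, which reads CACGT where the motif lies on the opposite strand.
P4ha1 (chr10:59323266-59323295, + strand, match 16 to 12 bases before the start): ggtgtgacagagcgCACGTagcgagggctg
P4ha2 (chr11:54100834-54100863, + strand, match 78 to 74 bases before the start): tgtgcatcgcatACGTGcagcgcgtggcgg
Plod3 (chr5:136986953-136986982, + strand, match 54 to 50 bases before the start): cttgaagtcattACGTGatgttcccttgga
Serpinh1 (chr7:99353393-99353422, - strand, match 171 to 167 bases before the start): accctgcttttcCACGTccaggaccgcgga

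These matches describe the letters in the window and are not binding sites. Of the 4 genes, 3 were called higher and Plod3 was not called, against 6 of the 9 tested genes of the set and 24.5% of all tested rows called higher. A link between motif and change was not tested. GGGCGG, the GC box, was found in 6 of the 8 promoters (P4ha1, P4ha2, P4ha3, Plod1, Serpinh1 and Pcolce) and in 32.7% of all, and so was shared by genes that rose and by the gene that fell. CAGAC, the short SMAD-binding core, was found in 2 of the 8 (Plod1 and Serpinh1) against 42.2% of all, CCAAT in 1 (Plod3) against 33.8%, and TATAAA in 2 (Plod1 and Crtap) against 12.4%. None of the 8 windows held TGACGTCA (1.55% of all promoters), GAANNTTC (6.69%), TGAGTCA (4.46%), TTGCATCA (0.791%) or the endoplasmic reticulum stress response element, CCAAT and CCACG with 9 bases between (0.113%).

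Some of the 10 genes lie near each other. Plod3 and Pcolce lie 574 kb apart on mm9 chromosome 5, where Plod3 was not called and Pcolce fell. Serpinh1 and P4ha3 lie 932 kb apart on chromosome 7, where Serpinh1 rose and P4ha3 stayed near 0. GC content of the rows ran from 43.1% for Plod2 to 58.5% for Pcolce. Among the 6 genes of 56.2% to 58.5% GC, the level of TGF-β1 replicate 2 on the log2(FPKM + 1) scale differed from the mean of the other treated libraries by -0.46 for Bmp1, -0.26 for Serpinh1, -0.04 for Plod1, 0.23 for Pcolce, 0.31 for Crtap and 0.39 for Plod3, so the sense of the difference was not shared. After correction for GC content and length, the same 7 genes were called in the same directions and Plod3 was called as well. In that fit 5149 of 10116 tested rows were called, 2835 higher and 2314 lower.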

How the data were processed

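Cells were Control or TGF-β1-treated by their treatment label, and replicate numbers came from the titles. The deposited values are FPKM, made by the authors by removing low-quality reads, mapping to mm9 with TopHat (TopHat2 2.0.11 in the submitters' processing notes, another version in the methods) and estimating FPKM with Cufflinks. No scaling between libraries is stated, nor whether strand was used or whether a row holds its gene or only the named transcript. All 6 columns matched a sample.

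The study used a count model (DESeq), which FPKM do not allow. Here log2(FPKM + 1) was tested for rows whose FPKM averaged at least 1, with limma 3.58.1 (R 4.3.3, lmFit, eBayes with trend, two-sided, Benjamini-Hochberg over all tested rows). Shares and ratios within a library used exact permutation tests over libraries. Depth assumed 200 nt fragments and was chosen so that low FPKM came closest to whole numbers of fragments. Only protein-coding genes above a length limit and without alternative annotated transcripts were used. Of their values under 0.6 FPKM, 98.0% to 99.8% per library lay within 0.1 of a whole number of fragments. That share follows from the choice of depth and is not a separate check. Positions came from the mm9 annotation (GENCODE M1).

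Same-numbered libraries deviated together (r = 0.19, 0.42 and 0.12 for replicates 1 to 3). Control replicate 1 with TGF-β1 replicate 3 (0.22) and Control replicate 3 with TGF-β1 replicate 1 (0.14) also correlated, both above the third same-numbered pair. This check therefore does not settle whether the numbers mark pairs. The main tests were unpaired, and replicate numbers were used only in alternative fits and tests. Genes named are the 10 members and, from the pathway list, the most changed called gene of a role and those not called. Tll1, Leprel4 and the other substrate chains are named as well. The members, lists, motifs and tests were chosen with earlier results of these data known. Sums of Pcolce with Pcolce2 and Bmp1 with Tll1 were added after seeing the values. Tables and exact tests used scipy 1.17.1, pandas 2.3.3 and numpy 2.4.6 under Python 3.11.15, and figures matplotlib 3.10.9. One listed podocyte marker is not reported here.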

Additional observations from a re-analysis of the deposited data

How the results depend on the processing

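The 7 called genes of the set kept their call and direction under all 17 alternatives (other pseudocount, filters, scalings, batch term, replicate block, GC and length correction, stricter threshold, replicates 1 and 3 alone, and leaving out each library). With the replicate number as a block, 7 genes of the set, 19 pathway genes and 5391 rows were called, against 7, 19 and 5721 without it. The block moved no call of the 10 genes, and for the paired shares and ratios the smallest exact p was 0.25. At an adjusted p under 0.01, 3672 rows were called, by construction. Rescaling to a common sum of protein-coding rows moved the median log2 change of all rows from -0.02 to -0.19, and the 7 calls held. Crtap, never called, turned to 0.0768 after the GC and length correction, and without each library in turn ran from -0.27 to 0.00045 (turning without Control replicate 1). Leaving out each library, the P4ha1 share difference ran from -0.356 to 1.68 percentage points and that of P4ha2 from -1.62 to 0.408, both turning without Control replicate 1 or TGF-β1 replicate 1. That of P4ha3 ran from -0.0613 to 0.0374, turning without Control replicate 1 or 2 or TGF-β1 replicate 3, and was 0.0121 in replicates 1 and 3. The cause was not tested. All other shares and ratios kept their direction, with the Plod1 share and the Bmp1 level per chain moving by over 1.5 times as given above. The P4ha3 level per 100 FPKM of chains also moved by over 1.5 times. Its difference was -0.00804 with all libraries, -0.0163 without Control replicate 3 and -0.00355 without Control replicate 2. P4ha3 rests on at most 7.78 fragments per library.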
